A study of Mus musculus with 5 samples.

Results

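The data described here are 19 of the 23473 mouse probes on a 2-colour microarray, those that gave a higher signal in cells carrying a mutant IL7R than in cells carrying the wild-type receptor in 2 lymphoid settings, a culture of common lymphoid progenitors and a Notch1-driven T-cell leukemia. The members were chosen from the measured values themselves. A probe entered when its wild-type signal was at least 100 on both of those arrays, its signal in the mutant was at least 2-fold higher on both, and the 2 genotypes were less than 2-fold apart in B cells. The files used here give probe IDs only. A search of the RefSeq tables for these IDs found 0 of them, so no member can be given a gene name, a genome position or a sequence, and the cell types could not be checked against marker genes.

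IL7R is the chain of the interleukin-7 receptor that binds the cytokine, and it signals through JAK kinases and the transcription factor STAT5. Early lymphoid progenitors depend on it for survival and growth, and activating mutations of it are known in acute lymphoblastic leukemia of the T lineage. Intracellular Notch1 is the active fragment of a receptor that drives T-lineage commitment, and its forced expression in blood progenitors causes T-cell leukemia in mice.

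All cells came from Balb/c progenitors transduced by retrovirus with wild-type IL7R (WT) or with the mutant that the labels name INS, so the WT cells carried a vector too, and every sample was sorted and pooled. The CLP culture held transduced CLP cells grown for 5 to 7 days with mSCF, hIL7, hFLt3L and OP9 stroma and sorted for GFP. The T-ALL cells were leukemias of KSL cells, a fraction that holds stem cells and early progenitors, that had also received intracellular Notch1 in both genotypes, taken from lethally irradiated recipients around day 30 to 40. The B cells were IgM+B220+ cells that arose from transduced CLP cells in recipients given a sublethal 4 Gy, sorted at about day 60, and INS cells but not WT cells are labelled leukemic. For the KSL culture, KSL cells from BM/FL were transduced and expanded for 4 to 5 days with mSCF, mTPO, hIL6, hFlt3L and IL3, and its label says in vivo first but goes on to describe a culture. The CMP cells were a myeloid progenitor fraction of transplanted KSL cells, sorted around day 40 from what the labels call a myeloid disorder, in lethally irradiated recipients. The promoter that drives the vectors, the number of animals pooled and the age of the recipients are not stated in the labels.

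Each setting had 1 array, with WT in Cy5 and INS in Cy3, no dye swap and no replicate. The spread between samples was therefore not measured, no test across samples was possible, and the number of arrays limits the precision of every value. Dye and genotype cannot be told apart. Signals are spot medians minus the median of the blank spots, in scanner units. A log2 ratio is INS over WT after each array was centred on its probes with both signals of at least 100, which divided the raw ratio by 1.20 in the CLP culture, 1.83 in T-ALL, 1.94 in the B cells, 2.01 in the KSL culture and 0.886 in the CMP. Signals below 50 were set to 50 before the ratio was taken. The CMP array was dimmer than the others, with 3427 probes measured in both channels against 6673 to 7654. Each of 2 positive controls was spotted 24 times, and within an array the log2 ratios of these spots varied with an SD between 0.08 and 0.13, a measure of spotting and scanning alone. The mean ratios of these controls lay between -1.10 and 0.62, so a ratio of 0 rests on the centring.

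In the CLP culture 370 of the 6374 probes with a WT signal of at least 100 on both arrays passed 2-fold in favour of INS, which is 5.8%. In T-ALL 90 were, which is 1.41%. Both held for 30 probes (0.471%), and 19 of these (0.298%) were under 2-fold in the B cells and are the members. Among all probes with both signals of at least 100, 9.23% of 7230 passed it in the CLP culture and 1.96% of 6947 in T-ALL. The shares describe the choice and carry no evidence about the members.

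The log2 ratios of the members ran from 1.01 to 2.38 in the CLP culture (median 2.82-fold higher in INS) and from 1.00 to 3.34 in T-ALL (median 2.42-fold higher). The median log2 ratio of all measured probes was 0 on both arrays, by the centring. Of the 19, 11 had the larger ratio in the CLP culture and 8 in T-ALL. At least 3-fold on both arrays were 3 members, and at least 4-fold 2. The INS signals of the members ran from 476 to 9547 in the CLP culture and from 389 to 5951 in T-ALL, far below the top of the scanner scale, and no member spot carried a quality flag of the image software on any array. Across the 19 members the ratios of the CLP culture and T-ALL had a Pearson r of 0.621 and a Spearman rho of 0.454. That is a description of probes cut at 2-fold on both axes, with the same dye layout on both arrays.

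Among the members, M400001039 stood first on both arrays. Its signal was 9547 in INS and 1522 in WT in the CLP culture, and 2357 in INS against 127 in WT in T-ALL. B cells gave 2114 and 2072, KSL cells 12249 and 5642, and CMP cells 4327 and 1950, with INS first. After centring, INS was 5.22-fold higher in the CLP culture, 10.1-fold higher in T-ALL and 2.50-fold higher in the CMP, while the log2 ratio was 0.11 in the KSL culture and -0.93 in the B cells. The probe was thus bright in WT cells of 4 settings and dim in WT T-ALL.

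M400011257 gave nearly the same profile. Its INS and WT signals were 6376 and 1163 in the CLP culture, 1675 and 172 in T-ALL, 1390 and 1303 for B cells, 9594 and 4381 for KSL cells, and 2988 and 1316 for CMP cells. Its log2 ratios were 2.19, 2.41, -0.87, 0.12 and 1.36 in that order. The 2 probes differed most in T-ALL, where M400001039 had 3.34. They lay in different printing blocks, 15 and 5, and whether they report 1 gene is not known from the files used here.

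M200002408 was the third. Its INS and WT signals were 607 and 134 in the CLP culture, 1566 and 137 in T-ALL, 301 and 294 for B cells, 1234 and 654 for KSL cells, and 585 and 448 for CMP cells. INS was 3.77-fold higher in the CLP culture and 6.24-fold higher in T-ALL, and the log2 ratio was 0.56 in the CMP and -0.09 in the KSL culture. Its B-cell ratio of -0.93 was read from an uneven spot, with a pixel coefficient of variation of 1.97 in INS, and was -0.49 with the spot mean in place of the median. These 3 probes were the only members at least 3-fold higher on both arrays, and they had the 3 highest CMP ratios of the 9 members measured there. With the local background subtracted, however, M200002408 had 0.28 there, the median of the 9, below M200000830 at 1.29 and M300003230 at 0.84.

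The next members were 2.76-fold to 3.70-fold higher in the CLP culture and 2.42-fold to 3.65-fold in T-ALL. M200013885 had signals of 3936 in INS and 915 in WT in the CLP culture and of 2035 and 391 in T-ALL. It had the highest KSL culture ratio of all members, 0.63, with signals of 2643 and 848, and a B-cell ratio of -0.21 (1287 and 765). On the CMP array its signals were 0 in INS and 2 in WT, so it gave no ratio there.

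M200006178 was 2.82-fold higher in the CLP culture (648 in INS, 191 in WT) and 2.91-fold higher in T-ALL (708 and 133). It was 1 of 3 members with a B-cell ratio above 0, at 0.14, and its CMP signals were 3 and 11. M300008736 was higher by 1.46 in the CLP culture (1987 and 599) and by 1.87 in T-ALL (708 and 106) on the log2 scale. It was bright elsewhere, with WT signals of 1551 in the B cells, 2468 in the KSL culture and 1238 in the CMP, where its ratio was 0.03.

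M200002576 and M200004369 were the members that ranked higher in WT T-ALL cells than in the WT cells of any other setting. M200002576 had signals of 4635 in INS and 1009 in WT in T-ALL and of 632 and 142 in the CLP culture, with ratios of 1.33 and 1.89. M200004369 had 3878 and 876 in T-ALL and 1194 and 285 in the CLP culture, with ratios of 1.27 and 1.80. In the B cells the first had -0.09 (1158 and 636) and the second -0.25 (318 and 194). In the KSL culture they had 0.04 (863 and 417) and 0.40 (489 and 184). In contrast to the 3 leading probes, these were well above the blank spots in WT T-ALL cells too. For M200002576, however, the local background was 92.3% of the WT spot signal in T-ALL, against 1.35% for M200004369. With it subtracted, the WT signal of M200002576 there was 79, so its contrast and rank hold only against the blank spots.

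M200005925 had ratios of 1.25 in the CLP culture (738 in INS and 258 in WT) and 1.24 in T-ALL (611 and 141), with -0.40 in the B cells (241 and 163) and 0.15 in the KSL culture (1063 and 478). M200015455 had 1.18 (1539 and 566) and 1.63 (2037 and 359), with -0.82 in the B cells (2894 and 2633) and 0.28 in the KSL culture (1626 and 667). At -0.91 in the CMP (373 and 791) it was the lowest of the members measured there.

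M200003363 had 1.53 in the CLP culture (2651 and 765) and 1.13 in T-ALL (2777 and 695), with -0.52 in the B cells (886 and 654) and 0.31 in the KSL culture (3201 and 1286). M200000830, the brightest member by its mean signal in the CLP culture and T-ALL, had 1.36 (3019 and 978) and 1.12 (5951 and 1496). Its B-cell signals of 4008 and 3926 gave a ratio of -0.93 after centring, which divided raw ratios of that array by 1.94.

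M200004492 had 1.86 in the CLP culture (3280 and 751) and 1.11 in T-ALL (1206 and 305), with -0.22 in the B cells (2278 and 1363) and 0.06 in the KSL culture (3376 and 1608). M200003653 had 1.11 (476 and 184) and 1.06 (1368 and 358), with -0.54 (487 and 365) and -0.01 (1318 and 663). In the CMP both fell short of 50 in INS, at 33 and 43, with WT signals of 124 and 169.

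M300003230 had 1.16 in the CLP culture (2386 and 889) and 1.04 in T-ALL (2119 and 563), with 0.71 in the B cells (1543 and 484) and 0.30 in the KSL culture (2362 and 958). M300011733 had 1.36 (906 and 293) and 1.02 (389 and 105), with -0.75 (272 and 235) and 0.22 (1110 and 475). The former thus had a ratio above 0 on 4 arrays and the latter on 3, and their CMP ratios were -0.25 (406 and 543) and -0.28 (208 and 285). The CMP ratio of M300003230 turned to 0.84 with the local background subtracted.

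The members just inside the limits were M300004778, M300010746 and M200003867, with a lower ratio of 1.01, 1.01 and 1.00. M300004778 had 1.01 in the CLP culture (1372 and 565) and 1.82 in T-ALL (1677 and 259), and its B-cell ratio of 0.84 (597 and 171) was the highest of the members. M300010746 had 1.01 (597 and 246) and 1.11 (684 and 173), with -0.18 in the B cells (368 and 215). M200003867 had 1.62 (514 and 139) and 1.00 (645 and 176), and its ratio in the KSL culture was 0.15 (696 and 313). All 3 were under 50 in both genotypes in the CMP. Just outside were M400002610, with 1.11 and 0.99, M300004057, with 0.93 and 1.29, and M300013441, with 1.80 and 0.93. Without the minimum on the WT signal, but with an INS signal of at least 100, a further 44 probes met the ratio conditions.

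Arrays were scanned with different gains, so levels in different settings were set side by side only as ranks within an array. In WT cells the members had a median percentile among the 23473 probes of 88.8 in the CLP culture, 81.3 in T-ALL, 89.7 in the B cells, 88.5 in the KSL culture and 86.0 in the CMP. M400001039 had its WT rank at percentile 73.4 in T-ALL and at 95.2 to 98.3 in the other 4 settings. M400011257 had 76.9 in T-ALL and 93.9 to 97.8 elsewhere. Leaving out the CMP, where 6 members had WT signals under 50, the WT rank was lowest in T-ALL for 12 of the 19 members. With the CMP kept it was lowest in T-ALL for 8 and in the CMP for 7. The WT signal in T-ALL is part of a ratio that the rule cut, so these counts describe the choice. They were not compared with the other eligible probes.

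With INS the rank of M400001039 in T-ALL was 94.4 and that of M400011257 was 92.4. Their INS ranks were 94.7 and 92.2 in the B cells and between 97.6 and 98.97 in the other 3 settings. M200002576 and M200004369 lay at percentiles 93.1 and 92.3 in WT T-ALL, against 73.1 and 81.7 in the WT CLP culture. The T-ALL rank of M200002576 was taken without subtracting the local background, most of its WT spot signal there. M200013885 lay at percentiles 85.5 to 93.3 in the WT cells of the 4 settings other than the CMP, where its signal was not above the blank spots. Ranks come from the same 5 arrays as the ratios and have no replicate either, and in these bulk samples more cells with a transcript and more of it in each cell cannot be told apart.

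The KSL culture took no part in the choice of the members. All 19 had both signals of at least 100 there, as did 96.1% of the 6374 probes with a WT signal of at least 100 on the CLP culture and T-ALL arrays. None was at least 2-fold apart: 0 of 19 were higher, where 0.392% of the 7654 measured probes were, and 0 were lower, where 0.248% were. Their log2 ratios ran from -0.09 to 0.63 with a median of 0.15, against 0 for all measured probes, and 17 of 19 were above 0, against 47.5% of the eligible probes measured there. The dye layout was the same as on the arrays that chose the members, so dye and genotype cannot be told apart here either. Repeated spots of the 2 controls on this array had SDs of 0.08 and 0.11.

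Across the alternatives tried, the median stayed between 0.14 and 0.29, and 15 of 19 members kept their sign. M200013885, at 0.63 (1.55-fold), had a ratio that 1.75% of the measured probes reached. M200004369 followed at 0.40 and M300010746 at 0.37, while M200002408 was lowest at -0.09. The 3 leading probes had ratios of -0.09 to 0.12 here. With normexp and loess M400001039 and M400011257 had 0.32 and 0.31, above the median of 0.29 under that setting. Across the 19 members the KSL culture ratio had a Pearson r of -0.204 with that of the CLP culture and -0.298 with that of T-ALL.

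The CMP array was also no part of the rule. Only 9 of the 19 members (47.4%) had both signals of at least 100 there, close to the 47.1% of eligible probes that did on this dimmer array. Of the 9, 2 were at least 2-fold higher in INS, M400011257 at 1.36 (2988 and 1316) and M400001039 at 1.32 (4327 and 1950). On that array 14.8% of the 3427 measured probes were, and 9.95% had a ratio at least as high as that of M400011257. With the local background subtracted M400011257 had 3.09 and M400001039 1.03, and M200000830, at 1.29 with its WT signal under the floor, also passed 2-fold, which made 3. None of the 9 was at least 2-fold lower, where 8.43% of measured probes were. The median of the 9 was 0.03, against 0 for all measured probes, and it ran from -0.06 to 0.28 across the alternatives. These values cover the 9 only and leave out the members dim in INS there.

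Of the other members measured in the CMP, M200002408 had 0.56, M200000830 had 0.28, M300008736 had 0.03, and M300003230, M200004369, M300011733 and M200015455 lay between -0.25 and -0.91. The 10 members not measured had INS signals of 43 or less, and 6 of them were under 50 in both genotypes. The authors' deposited table held CMP values for 18 of the 19 members, with a median of -0.53. Of these, 13 were below 0 and 5 above, and 4 were at least 2-fold lower and 2 at least 2-fold higher. The same shares over all probes of that column were not computed, so these counts carry no evidence about the members. The 4 lower ones were among the members not measured here, M200003363 at -2.30, M200003653 at -1.87, M200004492 at -1.80 and M300010746 at -1.53. Signals of M200003363 were 10 in INS and 44 in WT, and those of M300010746 10 and 30, all under the floor and near the blank spots. With normexp and loess these 2 had -0.56 and -0.35, and M200003653 and M200004492 had -1.02 and -0.88. Across the 9 members the CMP ratio had a Pearson r of 0.872 with that of the CLP culture and 0.761 with that of T-ALL. Without M400001039 and M400011257 r was 0.605 and 0.443 over 7 members, so part of the relation rested on those probes. Spearman rho was 0.717 and 0.683 over the 9, and 0.429 for both over the 7. These values describe few probes, cut at 2-fold in the CLP culture and T-ALL, with the same dye layout on each array.

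In the B cells the rule held the members under 2-fold, but it set no direction. All but M200003867 (118 in INS, 78 in WT) had both signals of at least 100. The ratios of these 18 ran from -0.93 to 0.84 with a median of -0.46, against 0 for all measured probes, and the median stayed between -0.56 and -0.27 across the alternatives. With M200003867 included, 16 of 19 members were below 0, against 43.3% of the 5221 eligible probes under 2-fold in B cells. Of the measured probes on this array, 8.54% were past 2-fold toward INS and 10.5% toward WT, and the members were held below both limits.

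Lowest were M400001039, M200000830 and M200002408, each at -0.93, and M400011257 at -0.87. With loess in place of median centring M400001039, M400011257, M200000830 and M200015455 passed 2-fold lower in the B cells, at -1.17, -1.12, -1.06 and -1.03, and M200002408 had -0.99. The members above 0 were M300004778, M300003230 and M200006178, also under each alternative for the ratio, and M200002576 joined them at 0.03 in the authors' deposited table.

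The limit in B cells separated the members from 11 probes that met the same conditions in the CLP culture and T-ALL. Of these, 6 were past 2-fold in favour of INS in the B cells and 5 in favour of WT. In the KSL culture, which none of the conditions used, the median log2 ratio was 0.16 over the 6, 0.15 over the 5 and 0.15 over the 19 members. In the CMP only 2 of the 6 and 2 of the 5 were measured. M400010899 was the highest of the 11 in B cells, at 2.76 (1369 in INS, 104 in WT), and M200006916 the lowest, at -3.21 (1703 and 8127).

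Several features of the array that the rule did not use were also compared. The members lay in 12 of 24 printing blocks, at most 3 in 1 block, and no pair lay next to each other. IDs beginning with M2 made up 63.2% of the members (12), 46.1% of the 6374 eligible probes and 34.2% of all probes. For M3 the shares were 26.3%, 27.5% and 29.0%, and for M4 they were 10.5%, 26.4% and 36.8%. The local background around the member spots had a median of 55.1% of the INS signal in the CLP culture and 52.5% in T-ALL before any subtraction. For the WT signal the medians were 59.8% and 49.5%. Some WT signals were almost all local background, as for M300003230 in the CLP culture (97.3%) and M200005925 in T-ALL (93.6%). The part of the local background in the ratios is given by the alternative that subtracts it.

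Under every alternative for background, spot summary, floor, centring and source of the ratios, all 19 members stayed above 0 on the CLP culture and T-ALL arrays. At least 2-fold higher on both under each of these 8 settings were 11 members: M400001039, M400011257, M200002408, M200013885, M200006178, M300008736, M200002576, M200004369, M200003363, M200000830 and M300003230. The other 8 members had lower ratios between 1.00 and 1.24. The changes of the floor could not alter a member ratio on the CLP culture and T-ALL arrays, because every member signal there was at least 100. The alternative centring added a constant to each array and raised the member ratios on both, so it could not take a member under 2-fold. The list of 11 therefore rests on the settings for background, loess, spot summary and source of the ratios. With the local background subtracted, the log2 ratios of M200000830 and M200002576 in T-ALL were 2.88 and 3.61, and that of M300003230 in the CLP culture was 3.57, with its WT signal under the floor. Other ratios that this setting moved by over 1.5-fold in the CLP culture were those of M200000830 (1.98), M400011257 (2.88), M300010746 (1.84) and M200005925 (0.63). In T-ALL they were those of M300003230 (2.30) and M300004778 (2.65), the latter with its WT signal under the floor. Membership depended more on the processing: with the local background subtracted, 23 probes met the rule and only 6 of them were members, in part because 10 members then had WT signals under the minimum.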

How the data were processed

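The members and lists were chosen with earlier results of these data known. Per the labels, aRNA made from total RNA was coupled to Cy5 for WT and Cy3 for INS. The deposited scanner files give, for each spot, a linear intensity at 635 nm and 532 nm and the local background beside it. The file headers give ratios as 532 over 635 nm and name no normalization, and no source used here names the image software. Python 3.11.15 took the spot median minus the median of the blank spots as the signal, and the log2 ratio of INS over WT (floor 50) minus its median over probes with both signals of at least 100. The rule that picks members was run on simulated data with a constant background. Recovery of changed probes was required there only at 4-fold or more, so that run does not bear on members near 2-fold.

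Log2 ratios of the same arrays also stand in the authors' deposited value table, with column medians of -4.8e-05 to 4.3e-06. Over probes measured here they had a Pearson r of 0.990 to 0.999 with the ratios above and a slope of 0.978 to 0.999, which settled direction and log2 scale. The centring differed: the authors' values minus these had a median of 0.18 in the B cells and of -0.08 to -0.03 on the other arrays. How that table was centred, and its background and filter, stay unknown. Limma 3.58.1 (R 4.3.3) gave the normexp (offset 50) and loess (span 0.3) alternatives.

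Named probes were the 10 members with the highest lower ratio, the 8 brightest, members past 2-fold in the KSL culture or CMP, and 3 on each side of the limits. M200003653 and M300011733 complete the 19 and were named after their values were seen, as were 2 of the 11 probes that the B-cell limit left out. Because probes carry no gene name, the gene lists and marker lists drawn up could not be evaluated. With 1 array per setting, no test or interval was computed.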

Additional observations from a re-analysis of the deposited data

Results flagged for a closer look

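For 2 members the direction differed between settings: INS was at least 2-fold higher in the CLP culture and T-ALL, and WT was in the CMP. M200003653 had a log2 ratio of -1.58 in the CMP and M200004492 one of -1.14, against 1.11 and 1.86 in the CLP culture and 1.06 and 1.11 in T-ALL. With 1 array per setting, this difference was not tested. Both CMP ratios are bounds. The INS signals were 43 and 33, under the floor of 50, and the WT signals were 169 and 124, so the ratios of the signals as measured lie below the values given. With a floor of 100 the ratios were -0.58 and -0.14, and with 20 they were -1.80 and -1.74. The authors' deposited table gave -1.87 and -1.80. With normexp and loess they were -1.02 and -0.88, so M200004492 was then under 2-fold. For M200003653 the local background was 68.0% of the INS spot signal and 40.4% of the WT spot signal. For M200004492 these shares were 87.7% and 64.5%, so the direction of both rests on signals near background.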

How the results depend on the processing

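No paired analysis was possible because each comparison is 1 array, and no replicate could be left out. A value counted as moved when it changed by more than the SD of repeated control spots on its array, and a count when it changed by more than 1.5 times. The number of members was 8 with a minimum WT signal of 200, 74 at 1.5-fold (under 1.5-fold in B cells), 3 at 3-fold and 30 without the B-cell limit, and between 13 and 23 under the other 8 settings. The members' median log2 ratio in the CLP culture was 1.36 with normexp and loess, and 1.72 when the local background was taken off. In T-ALL it was 1.47 with the local background subtracted, and 10 members remained, all 2-fold higher, with a minimum signal of 200. In the B cells the median was -0.27 in the authors' value table, whose values lay 0.18 above these over all measured probes, 1 member was 2-fold higher with the local background subtracted and 1 in that table, and 2, 1 and 4 were lower with the local background subtracted, normexp and loess, and loess by itself. In the KSL culture the median was 0.29 with normexp and loess and 0.27 with loess by itself. In the CMP it was 0.28 with the local background subtracted and 0.15 over 8 members with a minimum signal of 200. No called ratio of a member reversed its direction. The causes were not tested. Signals near 100 and the dim CMP array limit what can be read, and the local background, a large part of the signal around these spots, is the setting under which most member ratios moved (58 of 84).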
